A study of Mus musculus with 7 samples.

Results

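In mouse 3T3 fibroblasts made to express CTCFL, 6278 sites carried a CTCFL peak with no CTCF peak on them and no peak of either factor at the same place in P19 embryonal carcinoma cells. They are called CTCFL-alone regions, or members of this class, here. They were selected on the peak calls of 4 chromatin immunoprecipitation sequencing lists: peaks that shared at least 1 bp were merged into 65700 regions, and a region was kept when it held a 3T3 CTCFL peak and nothing from the other 3 lists. The 6278 regions were 9.56% of all regions and 37.4% of the 16764 peaks in the 3T3 CTCFL list (exact 95% interval 36.7 to 38.2), since every member held exactly 1 peak. Because the calls themselves chose the members, the absence of the other peaks is not a finding, and the scores and widths below, which come from the same list, are given as descriptions without a test.

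CTCF is a zinc-finger protein that binds DNA throughout the genome, where it anchors chromatin loops and separates domains. CTCFL, also called BORIS, is its paralogue: its zinc fingers closely resemble those of CTCF while the rest of the protein differs, and it is normally made in male germ cells and kept silent in most somatic cells. Fibroblasts with an introduced Ctcfl gene therefore allow the germline protein to be looked for on somatic chromatin that already carries CTCF.

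The 3T3 group analysed consisted of NIH3T3 cells with the stably integrated plasmids pBI-EGFP-FLAG-mCtcfl and pTA-N, of which the first carries a FLAG-tagged mouse Ctcfl. One library was made with CTCF antibody N2.2 and another with CTCFL antibody S6. The P19 group consisted of P19 embryonal carcinoma cells, again with 1 CTCF and 1 CTCFL library from the same antibodies. Its labels list the same plasmids, but its titles call the cells controls, so the induction state of the P19 cells is not settled. The labels describe 2 µg/ml doxycycline in the growth medium of all groups and 48 h without it for induction. They do not say whether the cells were 1 clone. The series has 7 samples, and the 3T3 libraries without the plasmids and the P19 input DNA were not analysed here. The CTCFL-alone regions were thus not compared with a CTCFL immunoprecipitation from cells lacking the construct, and the part that antibody background has in them was not tested.

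With 1 library per group, differences have no replicate check and p-values are not given. Intervals are exact (Clopper-Pearson) 95% intervals and cover counting error only. Neighbouring peaks are not independent, so such intervals are too narrow. Depth is unknown. The 4 lists held 5866 to 45653 peaks, with the 3T3 CTCF list the longest and the P19 CTCFL list the shortest, so the lists differ in how many sites they could exclude from the class. The score of a peak is that of the authors' caller, read from the caller's name as the negative log10 of its p-value times 10, and is comparable within a list only. Positions are mm9 coordinates counted from 1.

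Scores of the CTCFL-alone regions were mostly low within the 3T3 CTCFL list. Their median score was 68.1 (95% interval of the median 67.6 to 68.9), with quartiles of 59.7 and 84.2 and a range of 50.01 to 516. The 6517 CTCFL peaks whose merged region held 3T3 CTCF and no P19 peak had a median of 92.04, and the 3827 whose region held 3T3 CTCF and also a P19 peak had a median of 138. The remaining 142 CTCFL peaks had a P19 peak but no 3T3 CTCF, with a median of 74.7. The order of the first 3 classes was thus alone, with CTCF, and with CTCF plus P19. The intervals of the medians were 90.2 to 93.9 for the second and 133 to 145 for the third. They cover counting error only and are no test of the order.

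Only 746 members, 11.9% (11.1 to 12.7), scored at least 100, against 43.2% and 62.9% of the peaks with CTCF without and with a P19 peak. A score of at least 200 was reached by 58 members and a score of at least 300 by 18. When the whole list was split by score into 10 groups of nearly equal size, members made up 55.8% of group 1, the lowest, and 60.4% of group 2. They made up 31.8% of group 7, 6.38% of group 9 and 1.19% (0.730 to 1.84) of group 10, where 20 of 1677 peaks were members. The decline ran through every group from group 2 upwards, and it is a property of peaks chosen for lacking partners, not an independent measurement.

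**Figure D1:**
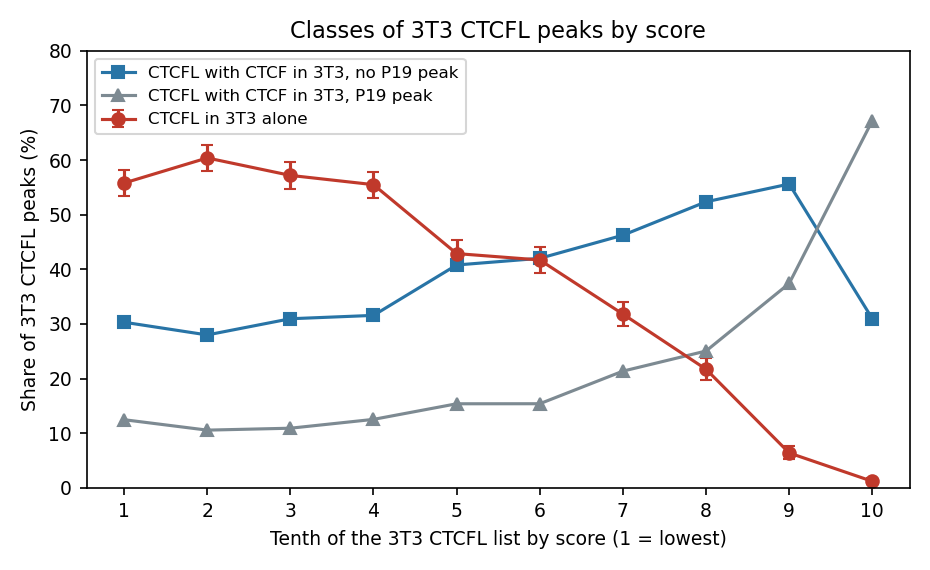
Share of 3T3 CTCFL peaks (y axis, %) in each of 3 classes for 10 nearly equal groups of the list ordered by score (x axis, 1 is the lowest); bars on the CTCFL-alone points are exact 95% intervals. The CTCFL-alone share falls from 60.4% in the second group to 1.19% in the highest, where peaks with CTCF and a P19 peak make up 67.2%.

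The strongest member lay at chr17:63848502-63849701, was 1200 bp wide and scored 516, which ranked it 742 in the 3T3 CTCFL list. The nearest peaks of the other 3 lists were all between 5.47 and 5.57 kb away from it. The second, chr5:22924214-22924428, scored 440 in 215 bp and had CTCF and P19 peaks from 2.00 to 2.15 kb away. The third, chr9:64022855-64022991, scored 432 in only 137 bp. Strong members thus came in very different widths.

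The next members by score differed in how far they stood from CTCF. The region chr18:9957745-9958212 (score 416) lay 71.4 kb from the nearest 3T3 CTCF peak. For chr10:39978322-39978602 (score 402) that gap was 42.5 kb, and for chr13:85428627-85429286 (score 388) it was 99.2 kb. By contrast, chr10:23505475-23505627 (score 398) and chr2:26767738-26768188 (score 367) had a 3T3 CTCF peak within 1.06 and 1.21 kb. No common distance from CTCF therefore marked the leading members.

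Another pair of leading members was kept apart from P19 CTCFL binding by under 400 bp. The region chr19:42056043-42056962 (score 375) lay 388 bp from a P19 CTCFL peak, and chr1:180267696-180268205 (score 371) lay 386 bp from one. Each was also next to a second 3T3 CTCFL peak, 14 and 50 bp away, that did overlap a P19 peak and so was no member. In these 2 places the class split peaks that stood side by side.

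Members were narrow. Their median width was 246 bp (242 to 248), against 320 bp for peaks with CTCF and no P19 peak and 350 bp for those with CTCF and a P19 peak. Of the members, 80.1% were under 300 bp wide, compared with 44.9% and 39.6% in those classes. A wide peak has more room to touch another peak, so width is tied to the way the members were chosen.

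In the full lists width followed score differently in the classes. Across peaks with CTCF, higher scores came with wider peaks, with Spearman's rho of 0.469 over 6517 peaks without a P19 peak and 0.539 over 3827 with one. Across the 6278 members rho was −0.129. The sign of this weak value was not stable: it was 0.239 over the 746 members that scored at least 100 and 0.0815 over the 4664 members without the 10 scores most common among them. When every list was limited to its 5866 highest scoring peaks, rho was 0.373 for members and 0.398 for the other CTCFL peaks, which is nearly the same. These correlations are across peaks of 1 library and are descriptions.

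At scores of 80 to 150 the members were narrower than at scores of 50 to 60, while peaks with CTCF and no P19 peak were wider. Members scoring 50 to 60 had a median width of 252 bp, close to the 268 bp of peaks with CTCF and no P19 peak. At 80 to 100 the medians were 192 and 291 bp, and at 100 to 150 they were 191 and 377 bp. At 150 to 300 they were 403 and 500 bp, and at 60 to 80 they were 255 and 267 bp. The 18 members that scored 300 or more had a median of 509 bp.

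**Figure D2:**
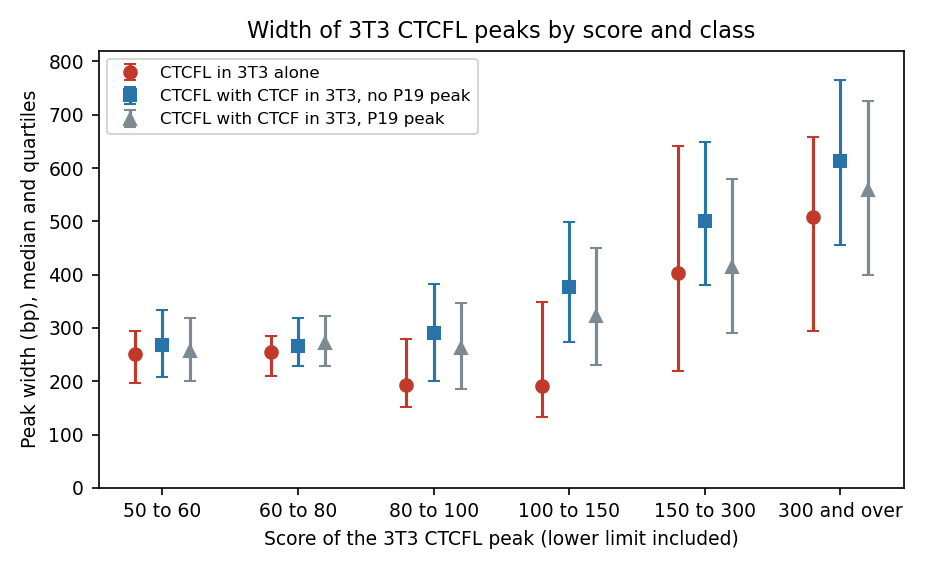
Peak width (y axis, bp; points are medians, bars the quartiles) of 3T3 CTCFL peaks in 6 score ranges (x axis) for 3 classes. CTCFL-alone peaks scoring 100 to 150 have a median of 191 bp, against 377 and 322 bp for peaks with CTCF without and with a P19 peak.

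Narrow strong peaks were therefore common among the members. Of the 746 members scoring at least 100, 345 were under 200 bp wide, 46.2% (42.6 to 49.9), against 7.92% (7.21 to 8.68) of the 5264 other 3T3 CTCFL peaks with such scores. The share among members was 27.9% when peak centres within 200 bp counted as shared, 15.7% with equal list lengths and 22.3% of members scoring at least 150 (4.17% of the others). In the 3T3 CTCF list, 24.0% of the peaks with no partner in any list and such a score were under 200 bp, against 2.42% of the rest. The P19 lists could not be compared, as they held 2 peaks this narrow with such a score. Both cut-offs were chosen after the widths had been seen.

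The leading narrow members, also picked after their values were seen, were 133 to 167 bp wide. After the regions on chromosomes 9 and 10 already named came chr1:162967490-162967635 (score 337), chr7:52382171-52382315 (score 282), chr15:79908871-79909019 (score 246) and chr2:130103751-130103883 (score 229). They were followed by chr11:48615535-48615678 (score 229) and chr6:67227793-67227959 (score 221). Of these 8, 5 had another member within 558 bp, namely those on chromosomes 10, 1, 7, 2 and 11. This was not so for narrow strong members as a group. Another 3T3 CTCFL peak lay within 1 kb of 14.2% (10.7 to 18.3) of the 345, against 22.0% (18.0 to 26.4) of the 400 wider members with such scores that have a neighbour on their chromosome. A 3T3 CTCF peak lay within 10 kb of 65.2% of the narrow and 65.5% of the wider ones.

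Many members shared exactly the same score. The 10 commonest values covered 1614 of the 6278 members, 25.7%, and the 10 commonest values of the other 3T3 CTCFL peaks covered 9.79% of those. These shares were not compared at like score, and members scored lower than the other peaks. The score 69.08 occurred at 287 members and 166 other peaks, 84.16 at 274 and 169, and 58.79 at 201 and 131. Members with these 3 scores were at most 202 bp wide, with medians of 185, 162 and 180 bp. Whether repeated values arise from small read numbers was not tested, since the lists give no read counts. When all peaks with one of these 10 values were set aside, the median width of the members was 270 bp and that of the other peaks 359 bp.

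Groups of members in a small space were few. When members separated by at most 5 kb were linked, 5363 of 6278 stayed single, and 354 pairs, 45 triplets and 16 groups of 4 or more were formed. Linked members were 14.6% of the class. Counting only neighbours in another merged region, since members cannot share one, 15.5% (14.6 to 16.4) of peaks with CTCF and no P19 peak and 7.32% (6.51 to 8.19) of those with a P19 peak had a peak of their own class within 5 kb. Members thus had a peak of their own class nearby about as often as the first and more often than the second. That share also depends on how many peaks a class holds, and the second held 3827 against 6278 members. Counting 3T3 CTCFL peaks of any class in another region, the shares within 5 kb were 27.9% for members, 29.0% and 26.7%.

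The largest groups had 6 members, and 2 of these were very tight and free of peaks from the other lists. The first spanned chr1:162965531-162968573, 3.04 kb. Its 6 members scored 76.5, 224, 151, 337, 86.0 and 98.7 in order along the chromosome, and 5 of them were 111 to 146 bp wide. The nearest 3T3 CTCF peak lay 31.7 kb from the closest of them. No CTCF, and no P19 peak of either factor, interrupted the series.

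The second tight group spanned chr19:8797681-8800213, 2.53 kb, with scores of 50.5, 194, 58.8, 126, 341 and 105. The member that scored 341 was 603 bp wide and the others 130 to 199 bp. Here the nearest 3T3 CTCF peak was closer, 4.35 kb from the first member. Both groups were rows of peaks of unequal strength. Which genes or transcripts lie at these 2 places, or at the narrow strong members, was not examined, because no annotation of the build was used, so the peaks are given as called and not as established CTCFL binding sites.

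**Figure D3:**
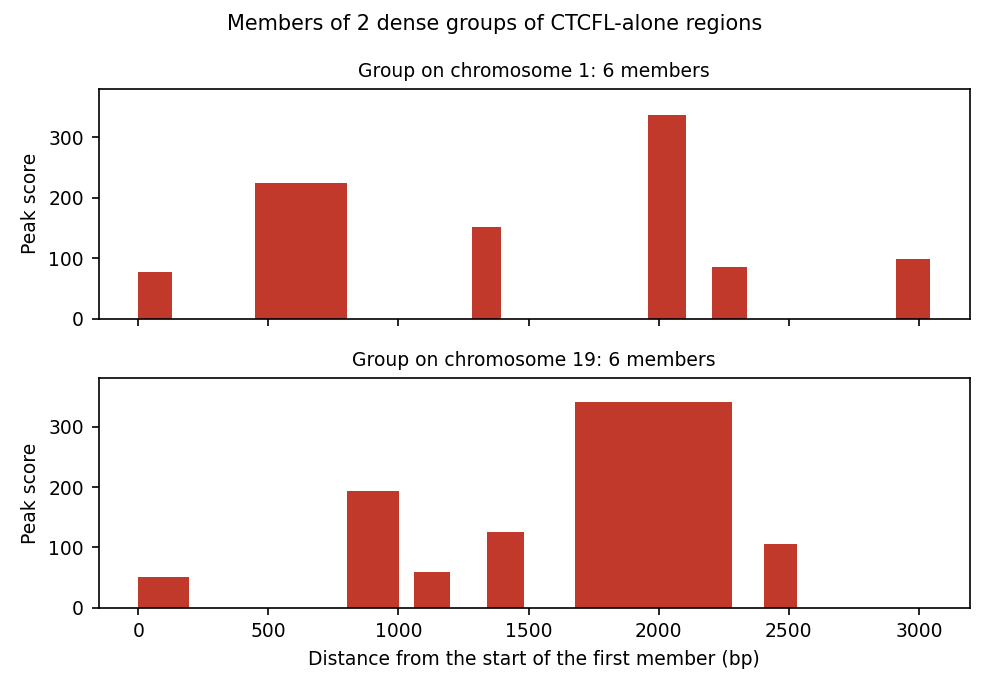
Score (y axis) of each of the 6 CTCFL-alone peaks in the groups on chromosomes 1 and 19 against distance from the start of the first peak (x axis, bp); bar width is peak width to scale. The highest scores are 337 in the group on chromosome 1 and 341 in that on chromosome 19.

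The third group of 6, chr19:44825121-44838322, was spread over 13.2 kb and had 3 CTCF peaks of 3T3 and 1 of P19 among its members, whose median score was 70.4. Groups of 5 lay at chr10:79867742-79880464 (12.7 kb, median score 69.1) and chr19:10496921-10507694 (10.8 kb, median score 82.3). Scores in the first of these 3 looser groups ran from 52.3 to 150 and in the last from 59.99 to 133, so both held weak and strong members.

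Although no CTCF peak touched a member, CTCF was seldom far away. The nearest 3T3 CTCF peak was a median of 5.70 kb from a member, with quartiles of 1.62 and 17.1 kb, over 6277 members (the mitochondrial one has no such neighbour). It lay within 10 kb of 63.2% of members (62.0 to 64.4), and 63.6% of all 3T3 CTCFL peaks had a CTCF peak outside their own region within that distance. For peaks with CTCF and no P19 peak the share was 63.0%, and for those with a P19 peak 65.0%. At this scale the members as a whole did not stand out from the list. Among 3T3 CTCFL peaks scoring at least 100 the share was 65.4% for members and 60.6% for the others.

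Closer in, the classes parted. A CTCF peak lay within 1 kb of 18.6% of members (17.6 to 19.6), and another CTCF peak within 1 kb of 26.3% (25.2 to 27.4) of peaks with CTCF and no P19 peak. For peaks with CTCF and a P19 peak the share was 18.4%, near that of the members. When the list was split by score into 4 groups, the members' share was the lower of the 2 in each, at 19.2% and 29.6% in the lowest group and 18.1% and 22.1% in the highest.

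**Figure D4:**
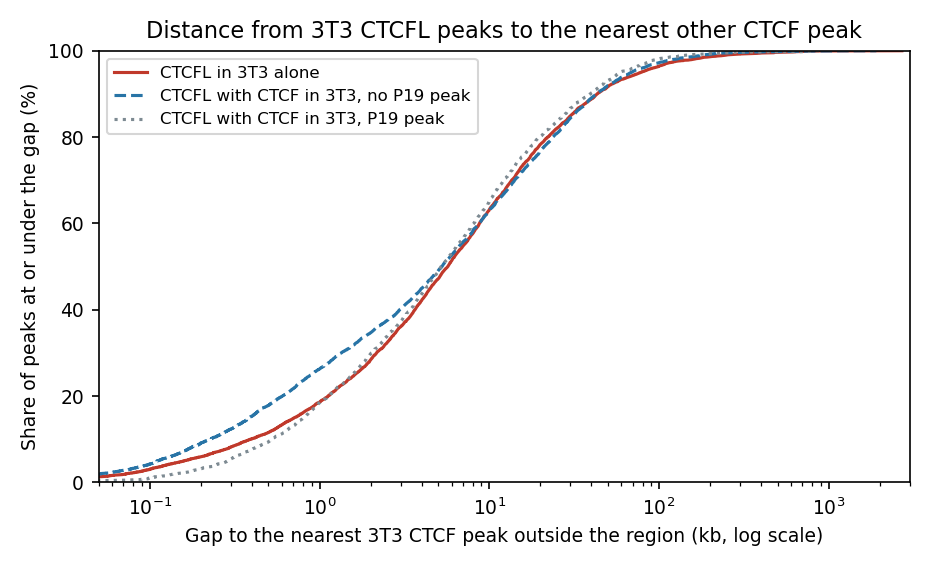
Cumulative share of 3T3 CTCFL peaks (y axis, %) by the gap to the nearest 3T3 CTCF peak outside their own region (x axis, kb, log scale) for 3 classes. The curves run together from about 10 kb, where 63.2% of CTCFL-alone peaks have been reached, and part below 1 kb, where the share is 18.6% for CTCFL-alone peaks and 26.3% for peaks with CTCF and no P19 peak.

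Nearness to CTCF did not go with a higher score. The 373 members within 0.2 kb of a 3T3 CTCF peak had a median score of 67.5, the 1795 members from 1 to 5 kb away 68.8, and the 1788 from 10 to 50 kb away 68.5. Only the 225 members more than 100 kb away were slightly lower, at 64.4, with a highest score of 174. Median widths stayed between 242 and 250 bp over all 7 distance ranges.

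The CTCF peaks that stood within 1 kb of a member had CTCFL of their own in 32.4% of 1166 cases (29.7 to 35.2), against 21.7% of all 3T3 CTCF peaks. Beside peaks with CTCF and no P19 peak this share was 41.2%, and beside those with a P19 peak 31.9%, so members did not stand out. They had a P19 peak in 23.8% of cases (21.3 to 26.3), against 44.0% of all. The second share was much the same beside other CTCFL peaks, at 20.9% next to peaks with CTCF and no P19 peak and 24.1% next to those with a P19 peak. With gaps of over 10 kb the nearest CTCF peak had a P19 peak in 44.2% of cases. The neighbouring CTCF peaks were of ordinary strength, with a median score of 97.9 against 104 in the whole list.

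Members far from any CTCF were rare, about as in the whole list. A 3T3 CTCF peak outside the own region lay within 50 kb of 91.7% of members and 92.1% of all 3T3 CTCFL peaks. No 3T3 CTCF peak was centred within 50 kb of 529 members, 8.43%. The most isolated was chrX:30526732-30526936 (score 99.3), 2696 kb from the nearest. Then came chr15:20378610-20378826 (score 67.3) at 1436 kb, chr1:112313634-112313858 (score 56.1) at 1243 kb and chr13:7632172-7632425 (score 63.3) at 896 kb. All 4 were 205 to 254 bp wide.

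P19 peaks were farther off than 3T3 CTCF peaks, in lists that were also shorter. The nearest P19 CTCF peak was a median of 11.7 kb from a member, and the nearest P19 CTCFL peak 60.6 kb. For peaks with CTCF in 3T3 and no P19 peak the medians were 11.8 and 61.0 kb, and for all 3T3 CTCFL peaks 11.3 and 58.3 kb. A P19 CTCFL peak lay within 1 kb of 2.64% of members, and 3.41% of peaks in that other class. Members and that other class thus had nearly the same distances from P19 binding.

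How often members had a CTCFL neighbour depended on whether peaks of the same merged region were counted. Another 3T3 CTCFL peak of any kind lay within 10 kb of 40.04% of members (38.8 to 41.3), against 47.2% of the whole list, 50.1% of peaks with CTCF and no P19 peak and 54.3% of those with a P19 peak. A member has no other CTCFL peak in its region, whereas a CTCF or P19 peak can join several CTCFL peaks into 1 region, so that comparison is set by how the classes were formed. With neighbours in other regions only, which was chosen after seeing the data, the share was 40.04% for members and 39.7% for the whole list. It was 39.3% (38.1 to 40.5) for peaks with CTCF and no P19 peak and 39.7% (38.2 to 41.3) for those with a P19 peak, so the intervals overlapped. Within 50 kb the median number of other CTCFL peaks was 2 in each of the 3 classes.

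At shorter range and by score the classes differed in both directions. With other regions only, a CTCFL neighbour lay within 1 kb of 12.6% (11.8 to 13.5) of members, 15.5% of peaks with CTCF and no P19 peak and 8.94% of those with a P19 peak. In the lowest of the 4 score groups the shares at 10 kb were 38.8% for members, 42.9% and 46.5%. In the highest they were 47.0% (40.96 to 53.2) over 270 members, 32.4% and 38.0%. Members thus had the lowest share in the lowest score group and the highest in the highest. Within the highest group the median scores were 152 for members, 203 and 320, so the peaks compared there were not equally strong.

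The CTCFL neighbours within 1 kb were more often members beside a member. Counting other regions only, 51.6% (48.0 to 55.1) of the nearest CTCFL peaks beside members were members themselves, against 28.3% (25.5 to 31.2) beside peaks with CTCF and no P19 peak and 31.9% (27.0 to 37.1) beside those with a P19 peak. Within 10 kb the shares were 45.4%, 36.7% and 38.3%, and members were 37.4% of the list as a whole.

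Among regions of every kind, the nearest to a member was most often one with 3T3 CTCF alone, in 33.0% of cases, and such regions were 29.5% of all. Another member was nearest in 14.4% of cases (13.5 to 15.3), against their 9.56% of all regions. Regions with CTCF in both lines and no CTCFL were nearest in 16.8% of cases and made up 21.3% of all, and regions with P19 CTCF alone were nearest in 14.1% and made up 19.6%. Regions with 3T3 CTCF alone and other members were thus nearest more often than their part of all regions, and these kinds with P19 CTCF less often. The nearest region was counted for members only, so whether this is particular to them was not tested.

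Every chromosome with peaks had members. On average 36.3% ± 4.51 (SD over 20 chromosomes) of a chromosome's 3T3 CTCFL peaks were members. The share was highest on chromosome 6, with 375 of 889 (42.2%, 38.9 to 45.5), and on chromosome 4, with 592 of 1424 (41.6%, 39.0 to 44.2). It was lowest on X, with 51 of 217 (23.5%, 18.0 to 29.7), and on chromosome 1, with 237 of 789 (30.0%, 26.9 to 33.4). These chromosomes were picked as the ends of the ranking, and their intervals, which cover counting error only, are no test.

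In density, chromosome 19 led with 5.19 members per Mb between its first and last peak, followed by chromosomes 17 (4.34) and 11 (4.31). X had 0.317 per Mb. Against CTCF, members ranged from 6.81 per 100 3T3 CTCF peaks on X and 7.79 on chromosome 1 to 17.9 on chromosome 15. Median scores of the members were alike on all chromosomes, from 64.2 on chromosome 13 to 70.1 on chromosome 7.

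**Figure D5:**
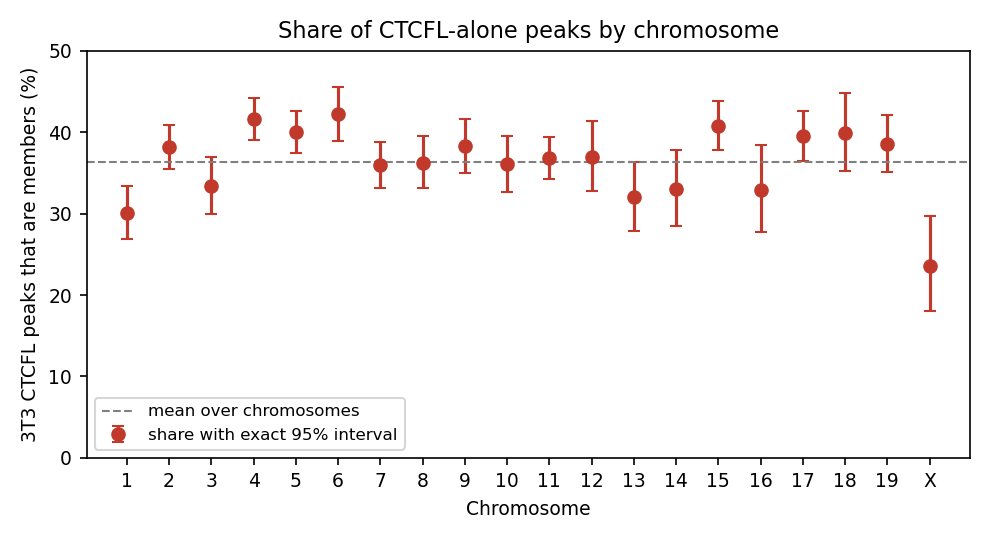
Share of 3T3 CTCFL peaks that are CTCFL-alone (y axis, %) on each chromosome (x axis), with exact 95% intervals; the dashed line is the mean over chromosomes. Chromosome X, at 23.5%, and chromosome 1, at 30.0%, lie lowest, and chromosome 6, at 42.2%, highest.

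Members followed the regional density of CTCF. Of 2648 windows of 1 Mb, 1538 held a member, and the 264 windows richest in members held 49.1% of them. The window with most members was chr10:80000001-81000000 with 34 members among 83 CTCFL peaks, then chr10:79000001-80000000 with 30 of 78 and chr15:76000001-77000000 with 27 of 75. Over windows with 6 to 10, 21 to 40 and 81 to 186 CTCF peaks, members were 36.1%, 36.2% and 36.2% of the CTCFL peaks, and with 41 to 80 they were 39.1%. The share was 43.3% in windows with 1 to 5 CTCF peaks, where 199 of 460 CTCFL peaks were members. In the 340 windows without 3T3 CTCF, 21 of 22 CTCFL peaks were members, which the choice of members largely fixes. Across the 2329 windows with a 3T3 peak, member and CTCF numbers had a Spearman's rho of 0.768, and such windows share library and regional density.

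The share of members varied between windows, where numbers are small. Whether this spread exceeds counting error was not tested. Among the 218 windows with at least 20 CTCFL peaks, the median share of members was 39.1%, with quartiles of 32.0% and 46.2%. The share reached 76.2% at chr2:166000001-167000000 (16 of 21), 64.3% at chr15:83000001-84000000 (18 of 28) and 63.3% at chr4:107000001-108000000 (19 of 30). These windows had 46 to 62 CTCF peaks of 3T3. At the other end, chosen after the values were seen, 3 of 22 CTCFL peaks were members at chr1:88000001-89000000 and at chr14:55000001-56000000, 13.6% each, and 4 of 26 at chr7:148000001-149000000, 15.4%.

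The same class in the other line was smaller. P19 CTCFL peaks with no partner in any list numbered 920 of 5866, 15.7% (14.8 to 16.6). They too were weak in their own list, with a median score of 61.4 against 78.7 for the other P19 CTCFL peaks, and narrower, at 523 against 596 bp. A P19 CTCF peak outside their region lay within 10 kb of 44.6% of them and of 51.5% of the other P19 CTCFL peaks. In 3T3 the same shares, for 3T3 CTCF, were 63.2% for members and 63.8% for the other CTCFL peaks. A P19 region of this kind lay within 10 kb of 140 members, 2.23%. The lists differ in length and the longer 3T3 CTCF list also removes P19 peaks from the P19 class, so the sizes of the 2 classes are not comparable as levels of binding. When every list was limited to its 5866 highest scoring peaks, 47.3% of 3T3 and 49.1% of P19 CTCFL peaks stood alone. That limit removed most CTCF peaks of both lines, so most of these CTCFL peaks had a partner in the full lists. With the other lists whole, 12.4% of 3T3 and 6.05% of P19 CTCFL peaks scoring at least 100 stood alone.

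At the boundary of the class, the calls turned on single base pairs. The region chr6:95067502-95067894 (score 171) abutted a CTCF peak of 3T3 without sharing a base, and so did chr11:102328639-102328832 (score 50.5). Gaps of 1 and 2 bp kept chr11:118338486-118338725 (score 51.1) and chr2:180869309-180869657 (score 124) in the class. Just outside were chr8:73906285-73906569 (score 60.4) and chr10:62485845-62486488 (score 52.8), each with 1 bp of 3T3 CTCF, chr12:58677411-58677591 (score 69.1), with 1 bp of P19 CTCF, and chr1:174078703-174078948 (score 64.1), with 2 bp of 3T3 CTCF. Such cases were a small part: 240 members lay within 100 bp of a peak of another list, and 97.2% of the other 3T3 CTCFL peaks shared at least 100 bp with one.

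The 4 widest members included 3 that stood within 1 kb of a 3T3 CTCF peak. The region chr4:71860863-71862366, 1504 bp wide with a score of 93.0, lay 381 bp from a 3T3 CTCF peak scoring 644 and 264 bp from a P19 CTCF peak. The regions chr15:84685610-84687048 (score 80.3) and chr13:58228804-58230239 (score 93.3) lay 513 and 813 bp from CTCF peaks of 3T3 scoring 126 and 129, not far above the list median of 104. The widest member of all covered positions 1 to 1695 of the mitochondrial genome with a score of 141. It was the only peak there in any list and the only member off the autosomes and X.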

How the data were processed

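Of the 7 samples, 4 had a peak list analysed here, 1 library each. FastQC, SAMtools, Bowtie and MACS 1.4 are named in the submitters' processing notes, as are hg19 and mm9. Their roles, the alignment settings, depth, control library and pooling were not given in these sources. The authors deposited chromosome, start, end and a score for each peak. The deposited score was taken to be 10 times the negative log10 of a p-value, because MACS is named and no score is under 50. Depth and control affect it, hence its use within a list only. Groups were taken from the sample titles.

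The build was taken as mm9. Gene and promoter tables of GRCm38.p6 were at hand, but peaks on 10 of 20 chromosomes lay past the last gene of that build. No peak was therefore assigned to a gene, no sequence was read, and motifs, base composition and promoters were not described.

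Peaks sharing at least 1 bp were merged. Gaps run from edge to edge. Gaps to CTCF and P19 peaks leave out the peak's own merged region, and gaps between 3T3 CTCFL peaks leave it out where the text says so. Members and settings were chosen with earlier results of these data known. The regions named were the 10 strongest members, 4 each just inside and just outside the class, the 4 widest, the 4 farthest from 3T3 CTCF, the largest groups linked by gaps of at most 5 kb, the leading 1 Mb windows and any member off the autosomes and X. Narrow members were added after the data were seen. Alternatives were other overlap criteria, score limits, list lengths, widths, distance limits, windows and autosomes alone. Overlap and gap counts equalled those of bedtools 2.31.1 in 24 of 24 comparisons, and planted overlaps and gaps among 2000 simulated peaks were recovered in all 3 sets. Scripts ran in Python 3.11.15 with SciPy 1.17.1, pandas 2.3.3, numpy 2.4.6 and matplotlib 3.10.9.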

Additional observations from a re-analysis of the deposited data

How the results depend on the processing

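No paired analysis was possible because there was 1 library per group, so no replicate could be left out either. Read depth is unknown and limits every absence. Of the values planned at the outset, 20 stayed within the reported value's interval (counts within 1.5 times) and 47 moved. Of the values added after seeing the data, 6 stayed, 9 moved and 5 reversed. The added values were mostly computed under alternatives listed at the outset. All 5 reversals were of the rank correlation of score and width among members. Only the reversal without the commonest scores came under an alternative chosen after seeing the data. Autosomes alone moved none of the values. Limits on score and length leave fewer peaks by construction. The setting with no other peak within 1000 bp removes members that near to CTCF, so it lowers their share with CTCF within 10 kb by construction. For other shifts the cause was not tested.

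In the order of the next 4 settings, namely 0.5 of the shorter peak shared, centres within 200 bp, no other peak within 1000 bp and peaks resized to 300 bp, the share of 3T3 CTCFL peaks in the class (37.4% as reported) was 39.7%, 47.1%, 29.4% and 41.9%. The share of P19 CTCFL peaks alone in P19 was 16.8%, 20.99%, 12.5% and 18.0%. The share of members with another member within 10 kb (21.5% as reported) was 23.0%, 27.9%, 17.2% and 24.0%. With centres within 200 bp the median score was 69.1 and the median width 257 bp, and with resized peaks the score was 69.1 and CTCF lay within 10 kb of 66.7%. With no other peak within 1000 bp CTCF lay within 10 kb of 54.3% of members and 67.4% of the other CTCFL peaks. This setting moves peaks with CTCF within 1000 bp from the first to the second, so that difference is built in. The chromosome mean was then 28.7% and rho of score and width was −0.156.

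A score of at least 100 in the CTCFL list left 746 members, 12.4% of the list, with a median score of 116 and width of 238 bp. CTCF lay within 10 kb of 65.4% of these members and 60.6% of the other CTCFL peaks. Another member lay within 10 kb of 7.79%, the chromosome mean was 11.9%, and the P19 share was 6.05%. With that limit in the other lists the class held 50.8% of 3T3 and 25.8% of P19 CTCFL peaks, with a median score of 69.1 and width of 253 bp. CTCF then lay within 10 kb of 45.9% of members and 46.9% of the other CTCFL peaks. Another member lay within 10 kb of 29.1%. Equal list lengths gave 2775 members, 47.3% of the list and 49.1% in P19, with a median score of 134 and width of 404 bp, CTCF within 10 kb of 16.5% and another member of 13.4%.

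At limits of 1, 5, 50 and 100 kb, CTCF lay near 18.6%, 47.2%, 91.7% and 96.4% of members, and another member near 6.77%, 14.6%, 53.1% and 68.6%. Without peaks under 200 bp the class held 32.4% of the list, the median score was 64.7 and another member lay within 10 kb of 15.6%. Without the 10 commonest scores the median width was 270 bp. The rank correlation of score and width turned from −0.129 to 0.0680 with centres within 200 bp, 0.239 with CTCFL scores of at least 100, 0.00102 with that limit in the other lists, 0.373 with equal lengths and 0.0815 without the 10 commonest scores. The other CTCFL peaks had 0.392 to 0.505 under these settings. The share of strong members under 200 bp was 27.9% with centres within 200 bp, 32.8% with the score limit in the other lists, 15.7% with equal lengths and 22.3% at scores of at least 150.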
